A study of Arabidopsis thaliana with 44 samples.

Results

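The genes described here were induced in both ecotypes of Arabidopsis after 24 h at 4°C and had returned to about the warm level, or below it, after 2 weeks at 4°C. They were selected on the measured values: a log2 ratio of cold over warm of 2 or more at 24 h, a log2 ratio of 0.6 or less at 2 weeks, and 2 FPKM or more at 24 h, each in SW and in IT. FPKM counts fragments scaled by transcript length and by the size of the library, and 0.5 FPKM was added to numerator and denominator of every ratio. Of the 33557 genes in the file, 27 met the rule. Of the 298 genes that met the 24 h limits in both ecotypes, the 27 were 9.06%. Another 37 were back by 2 weeks in IT but not SW, 8 in SW but not IT, and 226 in neither.

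SW is an ecotype collected in Sweden and IT an ecotype collected in Italy. RNA came from the whole aerial part of 23-day-old plants grown at 22°C (warm), or exposed afterwards to 4°C (24 h or 2 weeks). The cold plants were under dimmer light, so that cold and lower light cannot be told apart. The 2-week plants were also about 2 weeks older than the warm plants, so that age and cold cannot be told apart there. The 44 samples make 22 groups of 2, from SW, IT and 6 derived lines, and the file gives 1 value a group, pooled by the authors over its 2 samples. There is therefore no spread between replicates, no SD and no test for any value below, and a difference is given by its size only. The lines labelled sw-cbf2, sw-cbf23 and sw-cbf123 are in the SW background and by name carry CRISPR mutations in CBF2, in CBF2 and CBF3, and in all 3 CBF genes. The lines labelled it8 and it33 are in the IT background, in which CBF2 is already nonfunctional from a natural deletion. The study's materials use the name IT8 for the source of the it:cbf123 alleles. The mutations of it33 are not given in the sources used here. It is kept under its label and only grouped with the mutant lines below. The line labelled 35s carries the Italian genotype label and was sampled in the warm only. Each mutant name stands for 1 line, so that a mutation and other differences of that line cannot be told apart.

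CBF1, CBF2 and CBF3 are AP2/ERF transcription factors that are induced within minutes of cold and bind the DRE element, CCGAC, in front of cold-regulated genes. Many other genes of the early cold response are also induced by touch, wounding, dehydration or abscisic acid, and decline again as the plant acclimates. Which of the early genes are still high after weeks of cold therefore differs from gene to gene. Only 24 h and 2 weeks were sampled, and the time of the highest level was not measured. The CBF genes were transcribed in every line in the cold. CBF2 stood between 25.2 and 108 FPKM at 24 h in the 7 lines sampled there, and small deletions leave the RNA in place, so these levels do not check the mutant labels. In the 35s line CBF2 stood at 539.5 FPKM in the warm, against 0.202 in IT.

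The group sums ran from 880986 to 1101341 FPKM, and the depth of the libraries is unknown. The green tissue markers CAB2, CAB3 and NPQ4 were at 1476 FPKM or more in all 22 groups. Of 4 root markers, PHT1;1, EXPA7 and SHV2 were at 0.0947 FPKM or lower, and PYK10 ran from 0.972 to 47.9. RBCS1A, a subunit of Rubisco, was listed at 0 in sw-cbf123 at 2 weeks and at 16243 FPKM or more in each of the other groups. An exact 0 in the file can therefore be an estimate that failed, and a gene at 0 is described below only as listed at 0.

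The 27 genes include a zinc finger factor, a microRNA gene, a late embryogenesis abundant protein, several small cysteine-rich or uncharacterized proteins and a few enzymes, and differ widely in level. At 24 h the lowest, median and highest FPKM were 2.29, 12.9 and 598 in SW and 2.52, 28.7 and 348 in IT. In the warm, 16 of the genes were under 1 FPKM in SW and 9 in IT, and 5 were listed at 0 in both. The median log2 ratio at 24 h was 3.01 in SW and 2.41 in IT, values fixed in part by the rule. The map of levels shows the 24 h column of SW and IT as the brightest of each trio, which the rule requires, and shows less regular trios in the mutant lines.

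**Figure D1:**
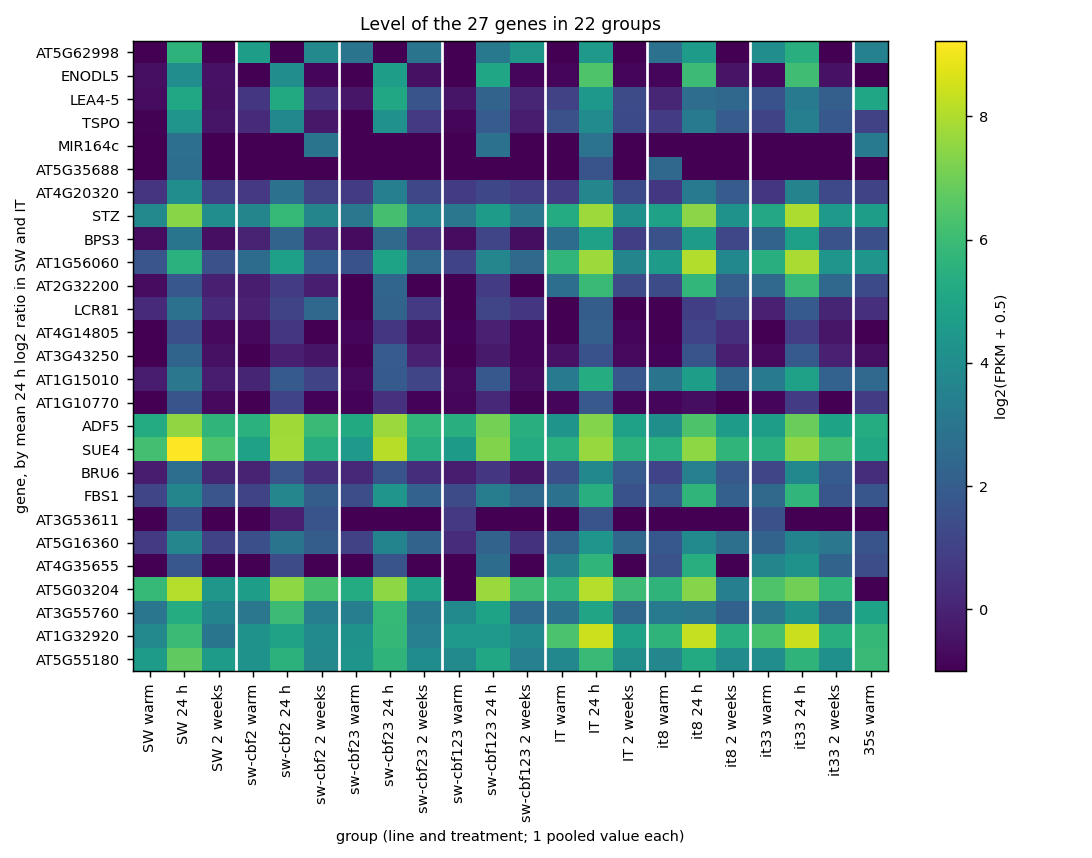
Level of the 27 genes (one a line, ordered by mean 24 h log2 ratio in SW and IT) in the 22 groups (columns), as log2 of FPKM plus 0.5. ENODL5 has a bright 24 h column in all 7 lines, and AT5G35688 and MIR164c are dark in most groups.

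One of the 27 genes is a transcription factor of the fixed list of fast cold factors. STZ, also called ZAT10, is a zinc finger repressor of transcription that responds to cold, salt and dehydration (chromosome 1, 9648021 to 9649323, minus strand, TAIR10.1). In SW, STZ had a warm level of 13.6 FPKM, a 24 h level of 169.6 and a 2-week level of 15.8, and values are given below in this order. The same 3 values were 39.0, 210.0 and 16.6 in IT. In sw-cbf2 STZ was at 12.1, 56.5 and 12.0 FPKM, and in sw-cbf23 at 8.03, 73.6 and 10.9. In sw-cbf123 it was at 8.08, 24.3 and 8.09, and it8 and it33 stood at 176 and 249.96 FPKM at 24 h. STZ thus rose at 24 h and fell back in every line. Its 24 h level was lowest in sw-cbf123, 2.78 below SW on the log2 scale, and differed from IT by 0.25 or less in either IT mutant.

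MIR164c, the precursor of a microRNA that directs cleavage of NAC transcription factor transcripts such as CUC1 and CUC2, is also among the 27 (chromosome 5, 9852674 to 9852775, plus strand). The mature strand is shown because the gene is 102 bases long and its value is the least like that of a usual transcript. Bases 2 to 8, the seed, are in capitals.
miR164c-5p, chr5:9852684-9852704 (TAIR10.1, plus strand): tGGAGAAGcagggcacgtgcg
In SW and IT, MIR164c was listed at 0 except for the 24 h groups, at 6.10 FPKM in SW at 24 h and at 6.88 in IT at 24 h. It was at 6.52 in sw-cbf123 at 24 h, 7.05 in sw-cbf2 at 2 weeks and 8.81 in 35s, and listed at 0 in the other 17 groups. Values of a gene present in 5 of 22 groups do not follow treatment or line in the mutants, and RNA sequencing of this kind does not measure the mature microRNA.

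LEA4-5 and TSPO were among the 4 genes with the largest mean log2 ratio at 24 h over SW and IT, with ENODL5 and AT5G62998. LEA4-5 encodes a late embryogenesis abundant protein of the kind that protects enzymes during drying (chromosome 5, 2089445 to 2090430, minus strand). In SW it was at 0.130, 34.3 and 0.181 FPKM, and at 1.54, 21.2 and 2.05 in IT. At 24 h it stood at 36.4 in sw-cbf2, 34.3 in line sw-cbf23 and 4.33 in sw-cbf123, and at 5.84 in it8 and 8.93 in it33. LEA4-5 was therefore as high as SW in the lines labelled cbf2 and cbf23 and 2.85 lower on the log2 scale in sw-cbf123. TSPO encodes a membrane protein that binds porphyrins and is induced by abscisic acid. It was at 0.0192, 19.8 and 0.242 FPKM in SW, and at 2.43, 14.7 and 1.93 in IT. At 24 h TSPO was at 13.1 in sw-cbf2, 17.63 in line sw-cbf23, 3.39 in sw-cbf123, 8.50 in it8 and 10.02 in it33. It was lowest in sw-cbf123, and rose at 24 h by a log2 ratio of 2 or more in all 5 mutant lines.

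ENODL5, an early nodulin-like protein of the phytocyanin family (chromosome 3, 6398632 to 6399337, plus strand), had the most regular profile. It was at 0.177, 15.7 and 0.213 FPKM in SW and at 0.0704, 85.1 and 0.0536 in IT. At 24 h it stood at 15.7 in sw-cbf2, 26.2 in line sw-cbf23, 31.5 in sw-cbf123, 63.2 in it8 and 66.8 in it33. At 2 weeks it was at 0.235 FPKM or lower in all 7 lines, and in the warm at 0.177 or lower, 35s included. ENODL5 was the only 1 of the 27 to meet the rule's limits in all 5 mutant lines.

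**Figure D2:**
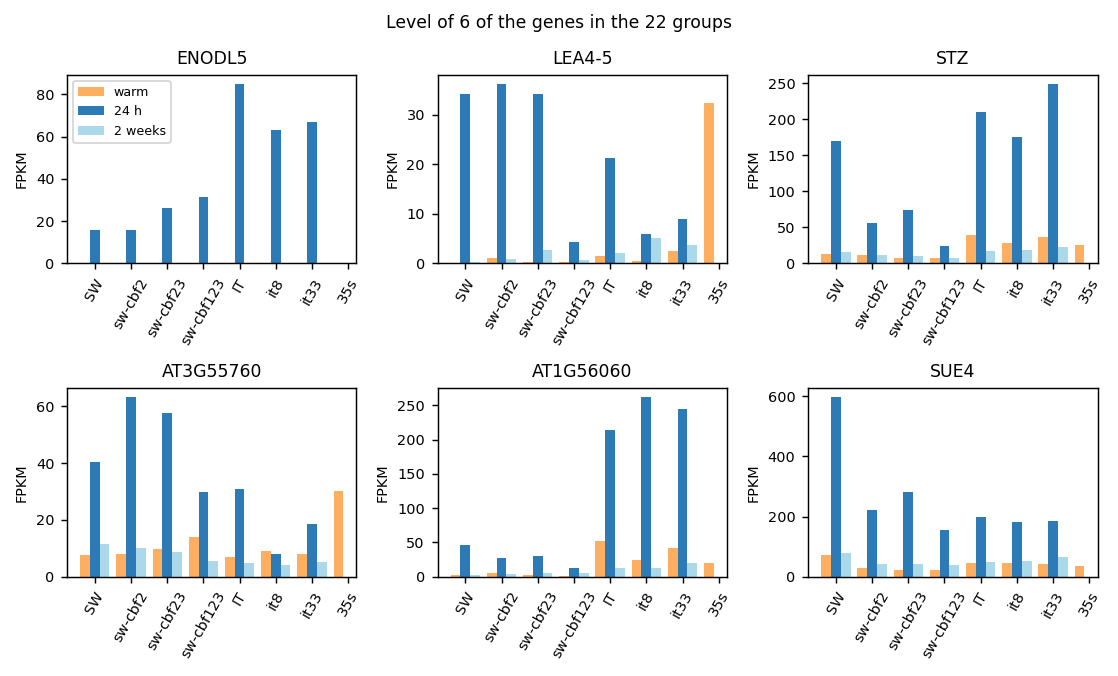
FPKM (vertical axis, from 0) of 6 of the genes in the 22 groups, with bars for warm, 24 h and 2 weeks in each line and for warm only in 35s. ENODL5 is seen at 24 h only, LEA4-5 at 24 h is 4.33 FPKM in sw-cbf123 and 34.3 in SW, and LEA4-5 in 35s reaches 32.4 FPKM in the warm.

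The genes with the highest mean level at 24 h were SUE4, AT5G03204, AT1G32920, STZ and ADF5. SUE4, annotated as an alpha/beta hydrolase related protein, was at 72.2, 598 and 79.8 FPKM in SW and at 44.4, 198 and 47.2 in IT. At 24 h it was at 221 in sw-cbf2, 282 in line sw-cbf23 and 155 in sw-cbf123, and at 181 in it8 and 186 in it33. SW stood apart from all 6 other lines for SUE4 at 24 h. SUE4 was also lower in the warm in the SW mutants, at 28.4 in sw-cbf2, 22.7 in line sw-cbf23 and 23.3 in sw-cbf123. Its log2 ratio at 24 h was 3.04 in SW, 2.94 in sw-cbf2, 3.61 in line sw-cbf23 and 2.71 in sw-cbf123. ADF5, an actin-binding protein of the actin depolymerizing factor family, was at 38.3, 182 and 51.9 in SW and 19.2, 159 and 28.0 in IT. Its 24 h level ran from 82.4 in it8 to 216 in sw-cbf2. AT5G03204, an uncharacterized protein, was at 56.8, 272 and 20.8 FPKM in SW and 52.4, 271 and 64.2 in IT. It was listed at 0 in sw-cbf123 and in 35s in the warm, and at 204 in sw-cbf123 at 24 h.

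Metabolic enzymes made up a smaller group, given here together with AT3G55760, which is not known to be an enzyme. AT4G20320, a CTP synthase, which makes CTP from UTP, was at 1.01, 15.6 and 1.36 FPKM in SW and 1.27, 12.9 and 1.97 in IT. At 24 h it was at 1.80 in sw-cbf123, against 6.69 in sw-cbf2, 10.1 in line sw-cbf23, 8.94 in it8 and 11.3 in it33, so that it hardly left its warm level in sw-cbf123. BRU6, an enzyme that conjugates auxin to amino acids, was at 0.356, 6.03 and 0.540 in SW and 2.36, 13.1 and 3.35 in IT, with 1.02 at 24 h in sw-cbf123. AT5G55180, a glycosyl hydrolase, was at 24.8, 106 and 24.9 in SW and 13.1, 61.1 and 16.3 in IT. Its 24 h level was between 34.0 and 50.3 FPKM in the 5 mutant lines, below both ecotypes in each. AT3G55760, uncharacterized, was at 7.57, 40.3 and 11.7 in SW and 6.75, 30.9 and 4.99 in IT. At 24 h it stood at 63.3 in sw-cbf2 and 57.6 in line sw-cbf23, above SW, and at 7.98 in it8, just under the 9.07 of it8 in the warm.

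The remaining genes are AT1G10770 (a pectin methylesterase and invertase inhibitor family protein), AT4G14805 (a lipid-transfer protein family member), LCR81 (a small cysteine-rich protein), AT3G43250, AT5G16360, and the short genes AT3G53611, AT5G35688 and AT5G62998. AT5G16360 reached 12.9 FPKM in SW and 20.5 in IT at 24 h. The other 4 of the longer genes stayed between 2.29 and 6.56 FPKM at 24 h in SW and between 2.52 and 3.74 in IT. AT5G62998 was at 47.8 FPKM in SW and 22.1 in IT at 24 h, and listed at 0 in both at the other times. In sw-cbf2 and sw-cbf23 it was listed at 0 at 24 h, with warm values of 25.8 and 7.22. Of the 27 genes 5 are 500 bases or shorter (18.5% against 2.73% of the genes at 1 FPKM in some group), and the median gene length was 986 bases against 2321. AT3G53611, AT4G14805, AT5G16360 and AT5G35688 overlap another gene of the file, and SUE4 a small nuclear RNA gene. With no strand stated for the counting, reads of such neighbours cannot be told apart.

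Whether the mutants, which the rule did not use, showed the same time course was asked line by line. Of the genes that reached 1 FPKM in some group of the line, the rule's limits were met by 0.469% in sw-cbf2, 0.517% in line sw-cbf23, 0.434% in sw-cbf123, 0.895% in it8 and 0.697% in it33. Of the 27 genes, 11, 8, 5, 8 and 8 met them in that order. The 24 h limit alone was met by 3.33%, 3.76%, 3.06%, 2.99% and 2.60% of the genes tested, and by 14, 18, 11, 16 and 13 of the 27. In each line the share of the 27 was above the background. AT1G56060, TSPO and ENODL5 passed the 24 h limit in all 5 lines. AT3G53611, AT5G35688 and AT5G55180 passed it in none.

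The return by 2 weeks was also found in the mutants, for part of the genes that rose there. Among all genes that met the 24 h limits in a mutant line, 14.4% in sw-cbf2, 14.2% in line sw-cbf23, 14.6% in sw-cbf123, 31.2% in it8 and 27.5% in it33 were back at a log2 ratio of 0.6 or less. Of the 27, 11 of 13, 8 of 18, 5 of 10, 8 of 15 and 8 of 13 were back. The median log2 ratio of the 27 at 2 weeks was 0.20 in sw-cbf2, 0.42 in line sw-cbf23, 0.04 in sw-cbf123, 0.16 in it8 and 0.00 in it33. These medians include genes that did not rise at 24 h in the line, so a value near 0 is not by itself a return. The other 271 genes past the 24 h limits in SW and IT had medians of 2.47, 2.45, 2.26, 1.97 and 2.04 at 2 weeks. The median over all genes tested was between 0.00 and 0.10 in these lines. Across the mutants, 1 gene (ENODL5) kept the full pattern in 5 lines, and STZ, ADF5 and AT4G35655 kept it in 4. Another 10 kept it in none, among them BRU6, AT5G16360, AT5G55180, LCR81 and AT1G10770.

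**Figure D3:**
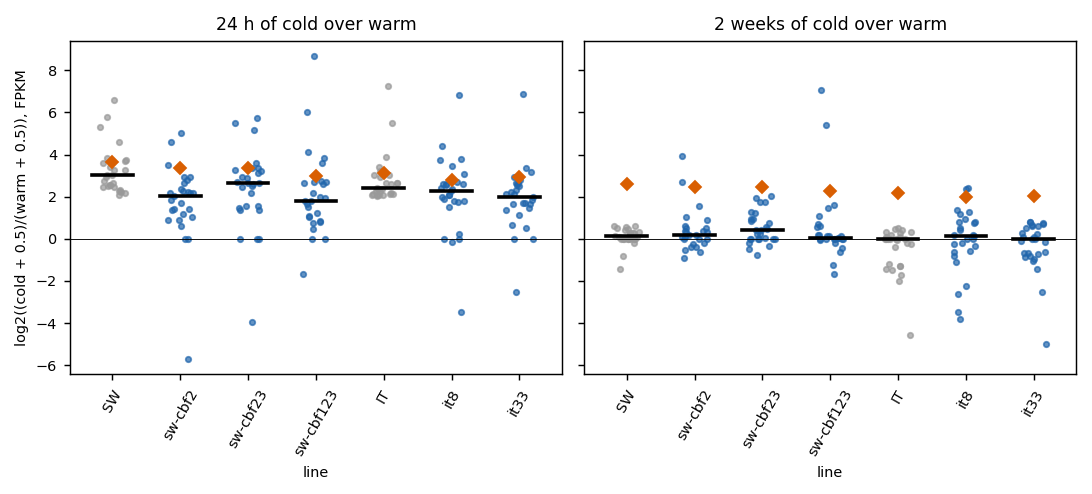
log2 ratio of cold over warm after 24 h (left) and 2 weeks (right) in 7 lines, with points for the 27 genes (grey in SW and IT, where the rule set them, blue in the mutants), black bars for their median and orange diamonds for the median of the other 271 genes past the 24 h limits. At 2 weeks the bars lie between 0.00 and 0.42 and the diamonds between 1.97 and 2.60.

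At 2 weeks several genes stood below the warm level in IT. A ratio of 2-fold or more below warm was found for 11.4% of the genes tested in SW and for 1 of the 11 of the 27 that could be tested, AT5G03204. In IT it was found for 11.7% and for 8 of the 18 that could be tested: AT1G15010, STZ, AT1G32920, AT1G56060, FBS1, AT2G32200, BPS3 and AT4G35655. Of these 8, AT1G15010, AT2G32200, BPS3 and AT4G35655 were under 1 FPKM in the warm and at 2 weeks in SW and could not be called there, so the 2 ecotypes cannot be compared on this count. In the mutants the background was 10.5% in sw-cbf2, 9.71% in line sw-cbf23, 11.0% in sw-cbf123, 8.84% in it8 and 9.31% in it33. The counts there were 0 of 17, 0 of 16, 2 of 13, 5 of 21 and 4 of 20 tested, and only AT1G56060 (it33) and AT4G35655 (it8 and it33) of the 8 were also called in an IT mutant. The rule caps the ratio at 2 weeks but sets no lower limit.

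In the warm, 17.3% of the genes tested were 2-fold or more higher in IT than in SW and 10.7% lower. Of the 18 of the 27 that could be tested, 12 were higher and 0 lower, in groups that the rule used. The 12 were the 8 genes above, whose 2-week call shares the IT warm group, and TSPO, BRU6, LEA4-5 and AT5G16360. AT1G56060 and AT2G32200, the only pair of the 27 from 1 family, encode small cysteine-rich proteins with a transmembrane domain. AT1G56060 was at 2.75, 45.5 and 2.38 FPKM in SW and at 52.0, 214 and 12.6 in IT. Its warm level was 23.7 in it8 and 42.0 in it33, against 1.59 to 5.56 in the 3 SW mutants. AT2G32200 was at 0.124, 2.95 and 0.433 in SW and 5.95, 58.5 and 2.11 in IT, with 24 h levels of 54.0 in it8 and 58.4 in it33 and 1.21 to 4.56 in the SW mutants. Neither gene overlapped between the backgrounds at 24 h.

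AT1G32920, uncharacterized, showed the same separation at a higher level, with 13.5, 62.9 and 7.42 FPKM in SW and 80.9, 348 and 28.6 in IT. In sw-cbf123 it was at 22.7 in the warm and 22.8 at 24 h, with no rise, whereas it8 went from 49.2 to 320.2. BPS3, a relative of BYPASS1, was at 0.138, 7.35 and 0.169 in SW and 5.61, 28.7 and 1.39 in IT. FBS1, a stress-induced F-box protein, was at 1.68, 12.4 and 2.76 in SW and 6.69, 43.4 and 2.48 in IT. AT1G15010, annotated as a Mediator subunit, was at 0.380, 7.89 and 0.371 in SW and 8.96, 40.01 and 2.96 in IT. AT4G35655 belongs to the family of RIN4, a regulator of immunity. It was listed at 0, at 2.89 and at 0 in SW, and at 11.3 and 51.3 FPKM and at 0 in IT. In all 4 SW lines it was seen at 24 h only.

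The difference between the backgrounds was looked for in the mutants, which the rule did not use, as a gap of 2-fold or more with no overlap between it8 and it33 and the 3 SW mutants. This comparison was chosen after the wild-type values were seen. In the warm, 7.90% of the genes tested were higher in the IT mutants and 4.00% lower. Of the 21 of the 27 that could be tested, 7 were higher (AT1G15010, STZ, AT1G32920, AT1G56060, AT2G32200, BPS3 and AT4G35655) and 0 lower. At 24 h the background was 8.46% higher and 3.96% lower, and 10 of 25 were higher and 0 lower. The 3 added at 24 h were FBS1, BRU6 and AT5G62998, the last a short gene listed at 0 in sw-cbf2 and sw-cbf23. The IT mutants share the natural CBF2 deletion and the rest of the IT genome, which cannot be told apart.

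The 24 h level of each mutant line was compared with that of its own ecotype. A lower level need not be a smaller rise, since a warm level can also be lower, as for SUE4 in the SW mutants. SW and IT at 24 h chose the 27 genes, so these counts are not independent of the choice. The share of tested genes 2-fold or more lower was 3.18% in sw-cbf2, 2.24% in line sw-cbf23, 5.57% in sw-cbf123, 1.57% in it8 and 0.984% in it33. Of the 27, 13, 10, 20, 8 and 8 were lower. The share higher was 3.39%, 3.20%, 5.27%, 0.807% and 0.616%, and 0 of the 27 were higher in any of the 5 lines. The median log2 ratio of the 27 was −0.97, −0.58, −1.63, −0.51 and −0.35 in that order, where the median of all genes tested was between 0.06 and 0.11. The other 271 genes past the 24 h limits had medians of −0.03, −0.15, −0.35, −0.30 and −0.11. The 27 also had to be back by 2 weeks, so the 2 sets were not chosen alike. Of the 27, 18.5% are 500 bases or shorter, against 3.72% of the 271. A role of the CBF genes was not tested by this comparison. Without the 5 genes of 500 bases or less, an alternative added after the values were seen, 6 were lower in sw-cbf23, 5 in it8 and 4 in it33. In both sw-cbf123 and it8, 6 genes were lower: AT1G10770, LCR81, AT4G14805 and LEA4-5, and the short genes AT3G53611 and AT5G35688. AT3G53611 was listed at 0 in 16 of the 22 groups and AT5G35688 in 19. The share of all genes lower in both lines was not computed, so this count has no background.

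**Figure D4:**
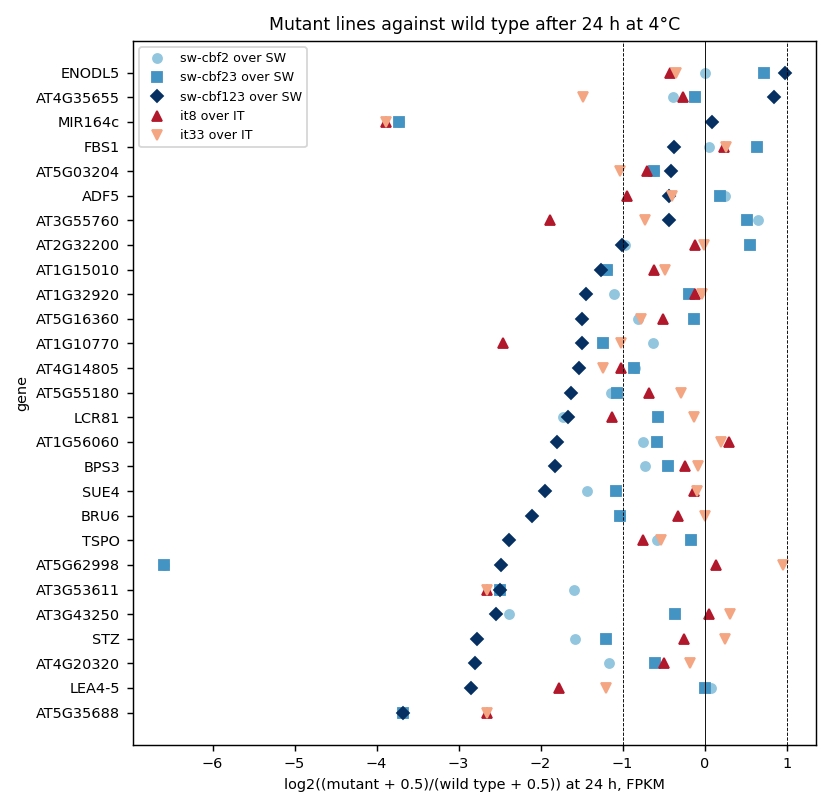
log2 ratio of each mutant over its ecotype at 24 h (horizontal axis, dashed lines at 2-fold) for the 27 genes (vertical axis, ordered by sw-cbf123). The sw-cbf123 diamonds lie left of the lower 2-fold line for 20 genes, and no point lies right of the upper line.

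Mutant lines were compared with each other because this uses no group of the rule. Against sw-cbf2, 1.41% of the genes tested were 2-fold lower in sw-cbf123 and 1.01% higher, and of the 27, 8 of 24 tested were lower and 3 higher. Against sw-cbf23 the shares were 2.09% and 0.639%, and 13 of 24 were lower and 2 higher. STZ, AT1G56060, TSPO, BPS3, AT4G20320, BRU6 and LEA4-5 were lower in both comparisons, which share the sw-cbf123 group. Those higher were MIR164c and AT5G62998 in both, and AT4G35655 against sw-cbf2. Among the 3 SW mutants, sw-cbf123 was the lowest at 24 h for 19 of the 25 genes tested, and for 34.5% of all genes tested. Between it8 and it33, 0.770% of genes were lower in it8 and 0.633% higher. There 3 of 24 were lower (AT1G10770, LCR81 and AT3G55760) and 1 higher (AT4G35655). With 1 FPKM added in place of 0.5, 1 was lower and 1 higher.

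The 35s line shows the genes in the warm at a high CBF2 level and a raised CBF3 level, which cannot be told apart. Against IT in the warm, 1.77% of the genes tested were 2-fold higher and 3.68% lower, and of the 21 of the 27 tested, 7 were higher and 7 lower. LEA4-5 was at 32.4 FPKM in 35s and 1.54 in IT, above its 24 h level of 21.2 in IT. AT3G55760 was at 30.2 against 6.75, AT5G55180 at 59.4 against 13.1, ADF5 at 39.5 against 19.2, and AT1G10770 at 1.22 against 0.0715. MIR164c and AT5G62998 were listed at 0 in IT. The lower genes were AT1G56060, FBS1, AT2G32200, BPS3, AT4G35655, BRU6 and AT5G03204, the last listed at 0 in 35s. STZ stood at 26.0 in 35s and 39.0 in IT, which did not reach 2-fold, and ENODL5 was listed at 0 in 35s.

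Promoter windows were read from 250 bases before to 50 bases after each gene start in TAIR10.1, all on the gene's strand, and are shown for 6 genes that span the responses seen in the mutants and the 35s line. Capitals mark the evening element AAATATCT, the DRE core CCGAC and the ABRE core ACGTG, each on either strand, where adjoining or overlapping matches run together.
STZ, chr1:9649274-9649573, minus strand: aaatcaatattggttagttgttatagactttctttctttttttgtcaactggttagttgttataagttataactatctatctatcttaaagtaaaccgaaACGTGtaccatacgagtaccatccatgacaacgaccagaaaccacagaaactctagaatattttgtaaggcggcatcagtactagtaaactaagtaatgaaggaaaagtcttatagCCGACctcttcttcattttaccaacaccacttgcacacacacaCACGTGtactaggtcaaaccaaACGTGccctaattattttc
ENODL5, chr3:6398382-6398681, plus strand: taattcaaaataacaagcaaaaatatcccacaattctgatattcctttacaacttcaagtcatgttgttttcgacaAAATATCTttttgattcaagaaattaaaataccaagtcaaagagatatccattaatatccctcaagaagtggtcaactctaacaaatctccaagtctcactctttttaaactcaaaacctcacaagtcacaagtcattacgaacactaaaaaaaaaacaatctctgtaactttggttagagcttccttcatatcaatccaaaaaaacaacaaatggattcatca
LEA4-5, chr5:2090381-2090680, minus strand: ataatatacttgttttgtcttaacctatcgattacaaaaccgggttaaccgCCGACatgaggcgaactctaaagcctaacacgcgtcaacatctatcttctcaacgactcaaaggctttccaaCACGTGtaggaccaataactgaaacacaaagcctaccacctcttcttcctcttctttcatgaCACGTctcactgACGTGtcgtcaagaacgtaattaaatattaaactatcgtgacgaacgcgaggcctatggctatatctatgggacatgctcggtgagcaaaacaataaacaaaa
TSPO, chr2:19568214-19568513, plus strand: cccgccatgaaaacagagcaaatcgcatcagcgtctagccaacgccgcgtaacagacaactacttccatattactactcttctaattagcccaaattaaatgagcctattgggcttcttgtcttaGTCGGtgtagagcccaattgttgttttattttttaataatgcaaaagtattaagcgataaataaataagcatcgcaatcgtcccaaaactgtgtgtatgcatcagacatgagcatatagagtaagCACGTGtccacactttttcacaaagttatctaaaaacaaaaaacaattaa
AT3G55760, chr3:20700064-20700363, plus strand: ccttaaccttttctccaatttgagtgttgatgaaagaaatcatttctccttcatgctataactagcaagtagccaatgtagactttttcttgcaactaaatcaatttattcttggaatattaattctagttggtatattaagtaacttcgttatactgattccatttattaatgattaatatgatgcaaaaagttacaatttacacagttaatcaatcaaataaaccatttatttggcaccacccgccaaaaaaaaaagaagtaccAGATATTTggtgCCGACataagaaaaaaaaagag
AT5G55180, chr5:22388271-22388570, plus strand: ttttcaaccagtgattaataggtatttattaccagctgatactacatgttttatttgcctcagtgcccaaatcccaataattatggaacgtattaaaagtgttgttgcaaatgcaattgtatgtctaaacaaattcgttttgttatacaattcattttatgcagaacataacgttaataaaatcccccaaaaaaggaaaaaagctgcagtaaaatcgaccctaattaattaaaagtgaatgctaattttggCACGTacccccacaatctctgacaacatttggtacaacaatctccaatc
LEA4-5 and STZ hold a DRE core together with ABRE cores and a G-box, CACGTG. TSPO holds a DRE core and a G-box, and no ABRE core apart from that G-box. ENODL5 holds an evening element and neither of the other cores. AT3G55760 holds an evening element and a DRE core, and AT5G55180 a lone ABRE core. In both genes these matches lie after the gene start, inside the gene and not in front of it. The G-box of TSPO, the G-box of STZ and the last ABRE core of STZ lie after the gene start as well. Matches after the gene start are counted in the shares below.

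Over the 27 windows the ABRE core was found in 15 (55.6%), against 25.4% of the 32812 genes with a window, and against 46.5% of the other genes past the 24 h limits. The G-box, which contains the ABRE core on both strands, was in 8 (29.6%), against 6.89% and 17.1%. In MIR164c the G-box lies in the mature strand printed above. The DRE core was in 8 (29.6%), against 15.6% and 26.0%. The evening element was in 6 (22.2%), against 5.29% of all genes and 34.9% of the other genes past the 24 h limits. The motif ACGCGT was in 3 (11.1%), against 2.08% of all genes and 4.46% of the other genes past the 24 h limits. The telo-box AAACCCTA was in 1 (3.70%, against 6.21% and 1.86%) and the heat shock element TTCNNGAA in 2 (7.41%, against 9.27% and 10.4%). The W-box core TTGAC was in 11 (40.7%, against 50.02% and 46.8%). Of the 7 genes higher in 35s, 3 held a DRE core (LEA4-5, AT3G55760 and ADF5), and of the 7 lower, 1 (AT2G32200). In AT3G55760 and AT2G32200 the DRE core lies after the gene start. A match is only a run of letters and was not tested as a site.

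**Figure D5:**
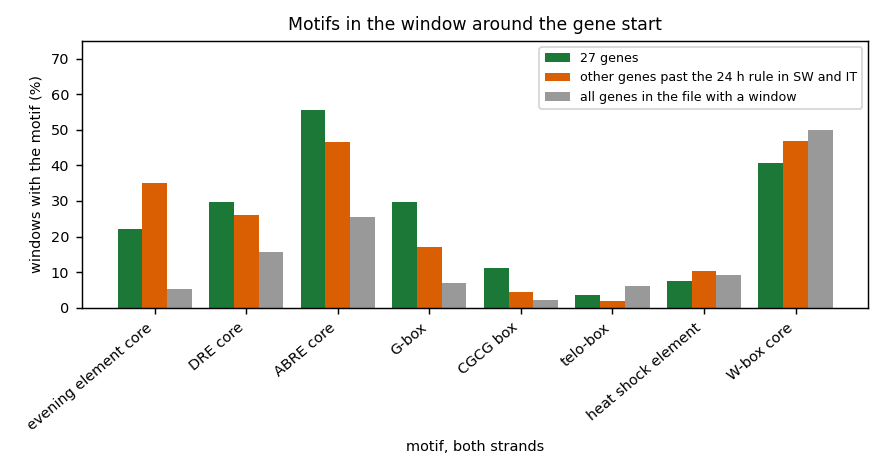
Share of windows (vertical axis, %) that hold each motif on either strand, for the 27 genes (green), the other genes past the 24 h limits in both ecotypes (orange) and all genes with a window (grey). The ABRE core reaches 55.6% in the 27 and 25.4% in all genes, and the evening element is more frequent in the other genes (34.9%) than in the 27 (22.2%).

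The 11 fixed lists of cold, stress and clock genes hold 151 of the 33557 genes (0.45%), 1 of the 27 (3.70%) and 33 of the other 271 genes past the 24 h limits (12.2%). So short a set of lists says little about the 27, and the counts below describe the lists themselves. In SW, 14.6% of the genes tested were 2-fold up at 24 h and 9.39% at 2 weeks, and in IT 9.21% and 7.89%. Of the fast cold factors, 11 of 17 were up at 24 h and 2 of 17 at 2 weeks in SW, and 10 of 18 and 1 of 18 in IT. There, STZ was the only member of the 27. ZAT12, also a zinc finger factor, was at 1.64, 19.6 and 3.69 FPKM in SW and at 32.0, 113 and 20.2 in IT. The CBF and DREB factors were up in 8 of 8 at both times in SW, and in 10 of 10 and 7 of 8 in IT. COR and LEA genes, the classic cold-regulated genes, were up in 8 of 8 at both times in SW, and in 8 of 8 and 7 of 8 in IT. Abscisic acid genes were up in 11 of 12 and 4 of 10 in SW, and in 7 of 12 and 1 of 12 in IT.

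In the lists below, the counts are genes up at 24 h and then at 2 weeks. Clock genes were up in 20 and 17 of 28 in SW and in 15 and 17 of 28 in IT. Sugar genes were up in 7 and 4 of 8 in SW, and 6 and 4 of 8 in IT. Ribosome biogenesis genes were up in 9 and 2 of 15 in SW, and 3 and 0 of 15 in IT. Touch and wound genes were up in 5 of 14 and 1 of 13 in SW and 3 and 0 of 14 in IT, and 2-fold down at 2 weeks in 9 and 10. Flavonoid genes were up in 7 of 14 and 5 of 15 in SW, and 1 of 15 and 2 of 16 in IT. Light stress genes were up in 5 and 4 of 8 in SW, and 0 and 1 of 8 in IT. Heat shock genes were up in 1 and 0 of 5 in SW and 0 of 6 at both times in IT. The 27 had no gene in these 7 lists, nor in those of abscisic acid, CBF and DREB and COR genes.

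Of the 136 genes of the CBF regulon of the accession Ws-2, 119 of 136 were up at 24 h and 73 of 134 at 2 weeks in SW, and 89 of 135 and 39 of 134 in IT. Of the 27, 3 were in it (11.1%, against 43 of the other 271, 15.9%): ADF5, AT3G55760 and AT5G55180, which were also among the 7 higher in 35s. Of the study's own classes of CBF-regulated genes 13 of the 27 were members, 8 of them in a class that includes SW and 2 (AT3G55760 and LEA4-5) in a class that includes IT. The SW and IT parts of those classes were drawn on these samples and are no independent evidence. The Col-0 part came from another study of the accession Col-0. Of the 13, 7 were in a class that includes Col-0, and 3 of these (AT1G10770, ADF5 and AT2G32200) were in the Col-0 class alone. By the study's definition the class genes were induced by cold at 24 h, as the 27 were by the rule. The share of the other 271 genes in these classes was not computed, so the class counts have no background.

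The rule's limits ran through a continuous range. At the 24 h limit AT1G56060 (2.03), AT5G55180 (2.07) and AT5G16360 (2.07) lay just inside, and GATL10 (1.98), AT4G27530 (1.92) and AT5G10695 (1.91) just outside, by the log2 ratio of the lower ecotype. At the 2-week limit AT3G55760 (0.59), FBS1 (0.58) and AT2G32200 (0.58) were inside, and CYP76C5 (0.61), ESL1 (0.66) and CZF1 (0.66) outside, by the log2 ratio of the higher ecotype. At the FPKM limit AT4G14805 (2.29), AT3G53611 (2.32) and AT3G43250 (2.52) were inside, and AT1G52900 (1.98 FPKM) was the only gene outside.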

How the data were processed

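The deposited file holds FPKM for 33557 genes in 22 columns, 1 a group. Per the labels and the methods of the study, the authors mapped the reads of 2 samples a group to TAIR10 with TopHat 2.1.0 and Bowtie2, and estimated FPKM with Cufflinks and Cuffdiff, which pool the samples of a group. The submitters' processing notes give Cufflinks 2.1.1, and whether strand was used is not given in the sources used here. FPKM of short genes depend on the length model, and libraries of unknown depth set no interval. The file carries no other measurement.

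Log2 ratios were computed after adding 0.5 FPKM, so that they understate the change of low genes and, against a group at 0, depend on the amount added. A call needed a ratio of 2-fold and 1 FPKM in a group compared. Where the design named a test across replicates, none could be run on 1 value a group. Shares over all genes stand beside the counts, except where a background is said to be missing. Gene positions, names and windows came from TAIR10.1 and RefSeq, where 32813 genes were found, and the file holds no coordinates. Sample groups were taken from the labels. The members and the gene lists were chosen with earlier results of these data known. Genes were named by a fixed rule: members of a list, the 10 largest ratios and 5 highest levels at 24 h, neighbours of each threshold, members changed in both triple mutants, members with the pattern in every mutant line or in none, members below warm in both ecotypes, and families with several members. Others were named after their values were seen. The 11 lists held 151 genes. Python 3.11.15, NumPy 2.4.6 and pandas 2.3.3 were used and checked on simulated data.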

Additional observations from a re-analysis of the deposited data

Results flagged for a closer look

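The log2 ratio of BPS3 after 2 weeks at 4°C was above 0 in every SW line and below 0 in every IT line. It was between 0.04 and 1.22 in the 4 SW lines and between −1.70 and −0.36 in the 3 IT lines, and the means differed by 1.29. In FPKM it went from 0.138 in the warm to 0.169 in SW, 0.496 to 0.641 in sw-cbf2, 0.124 to 0.949 in sw-cbf23 and 0.136 to 0.153 in sw-cbf123. It went from 5.61 to 1.39 in IT, 2.39 to 1.75 in it8 and 4.32 to 2.53 in it33. All warm and 2-week values of the SW lines were under the 1 FPKM that a call needs, and the rule had capped the ratio in SW and IT. The difference was not tested.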

How the results depend on the processing

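With 0.1 FPKM added in place of 0.5, 23 genes met the rule, 20 of them among the 27, and with 1 FPKM added 22 did, 19 among the 27. Median-of-ratios scaling gave 29, including all 27, quantile normalization 25, with 23 of them, and no filter on low values 28, including all 27. Under each of these 5 settings 14 genes were members: AT1G15010, STZ, AT1G32920, LCR81, ENODL5, SUE4, BPS3, AT4G20320, BRU6, AT5G03204, LEA4-5, MIR164c, AT5G55180 and AT5G62998. With 0.1 FPKM added 1 gene was called higher than SW in sw-cbf123 at 24 h in place of 0, and with 1 FPKM added 1 gene in place of 3 was lower in it8 than in it33, and 0 heat shock genes in place of 1 were up at 24 h in SW. Scaling by the median of ratios or by quantiles called 1 gene below warm at 2 weeks in sw-cbf2 in place of 0. On the forward strand only, the evening element was in 3 windows, the DRE core in 5, the telo-box in 0 and the W-box core in 5. Among genes at 1 FPKM in SW or IT at 24 h the ABRE core was in 27.5% of windows, the G-box in 8.91%, the DRE core in 16.7% and the evening element in 6.17%. Without the members of 500 bases or less, 6 genes were lower in sw-cbf23, 5 in it8 and 4 in it33. The other counts stayed within 1.5 times. The largest scaling shift was 0.09 on the log2 scale. No paired analysis was possible because the file holds 1 pooled value a group, and for the same reason no replicate could be left out. Depth is unknown, so no limit of detection can be set.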

Other observations

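Of the 13 genes that did not stay members under every setting, AT1G10770, AT2G32200, AT3G43250 and AT4G14805 were lost with 0.1 FPKM added and also with 1 FPKM added, and AT1G56060 and ADF5 were lost under quantile normalization alone. With 1 FPKM added, AT2G32190, whose number is next to that of the member AT2G32200, met the rule as well.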
